A study of Mus musculus with 3 samples.

Results

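The insulin-like growth factor (IGF) axis was followed here through 9 genes, the ligands *Igf1* and *Igf2*, the receptors *Igf1r* and *Igf2r*, and the binding proteins *Igfbp2*, *Igfbp3*, *Igfbp4*, *Igfbp5* and *Igfbp7*. They were found by symbol among the 33696 genes of the count matrices, where each had 1 row. Droplet-based single-cell RNA sequencing had been done on retinas of C57BL/6 mice at postnatal day 6 (P6), after enrichment on magnetic beads for CD31 (vascular cells) and CD11b (myeloid cells). There were 3 libraries, with 1 per genotype. The wild-type (WT) library came from mice that were not littermates of the mutants. The *Tspan12* KO mice lacked *Tspan12*, a co-receptor gene of the Norrin pathway, in every cell of the body. The *Ctnnb1* cKO mice carried *Ctnnb1* loxP/loxP with *Pdgfb*-iCreER, which removes *Ctnnb1* (beta-catenin) mainly from endothelial cells (ECs) after tamoxifen injection in the first days of life. Whether the WT and *Tspan12* KO mice carried Cre or received tamoxifen is not given in the sources used here. Each library pooled several mice of 1 genotype and both sexes, so the spread between animals is not seen, and genotype, litter and library cannot be told apart. No p-value is therefore given for a knockout against WT.

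IGF-1 and IGF-2 are small growth factors that act mainly through the tyrosine kinase receptor IGF1R. IGF2R carries no kinase and takes IGF-2 to the lysosome. Most of the circulating and local ligand is held by IGF binding proteins, which prolong its life and limit or direct its access to the receptor, and IGF-1 is known as a survival and permissive factor for growing retinal vessels. IGFBP7 binds IGFs weakly and is deposited in the vascular basement membrane.

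The libraries held 9151 to 14426 cell barcodes and 37008362 to 137114957 UMIs (unique molecular identifiers, each marking 1 captured transcript), and 8451 to 12732 cells per library were kept. They shared 21 to 37 barcodes pairwise. Below, 3 values in a row stand for the WT, *Tspan12* KO and *Ctnnb1* cKO libraries in this order, and 2 ratios in a row for *Tspan12* KO and then *Ctnnb1* cKO. The median barcode held 4974, 3166 and 2790 UMIs. ECs made up 5.99%, 2.28% and 32.0% of the kept cells, and microglia 3.06%, 2.75% and 22.7%. Clustering was done without the 9 genes, the other genes of the IGF lists used below and mitochondrial genes. It gave 29 clusters, of which 5 stayed unnamed, with 34.5%, 29.4% and 3.63% of the cells. An unnamed cluster of cycling cells carried microglial markers and is not counted among the microglia. ECs carried their own markers at a summed level of 9580 to 10837 CPM (the usual scaling of UMIs to a common total of the class), and microglia theirs at 17463 to 22463 CPM. Rods, which stand in below for cells without vascular or myeloid transcripts, held EC markers at 190.3, 118 and 576 CPM. Erythrocyte genes summed to 3011 CPM in *Tspan12* KO ECs, against 159 in WT and 247 in *Ctnnb1* cKO. The part of these background transcripts in the results was not tested. Of the targeted genes, *Tspan12* stood at 95.8, 85.4 and 40.2 CPM in ECs and *Ctnnb1* at 524, 612 and 444 CPM. The *Tspan12* KO library thus held *Tspan12* UMIs near the WT level. The counts come from 3' ends and the sources used here do not give the deleted part of either gene, so these levels check neither label.

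The cells of a class did not come from the same clusters in each genotype. Cluster 14 (led by *Slc38a5* and *Asb4*) held 458 of 538 WT ECs and 167 of 290 *Tspan12* KO ECs, and 1780 of 2707 *Ctnnb1* cKO ECs were in cluster 6 (led by *Hmcn1* and *Piezo2*). Mural cells, the pericytes and smooth muscle cells around the vessel, were few, at 15, 60 and 86. The mural cluster carried EC markers at 6471 to 7168 CPM beside its own markers at 4684 to 5489 CPM, and all 12 EC markers were detected in it. Mural values are therefore also given for the 3, 11 and 27 cells with UMIs of fewer than 3 EC markers.

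Shown are the promoters of *Igfbp3* and *Igfbp7*, the members with the highest vascular levels relative to other cells. That of *Igf1*, the microglial ligand, is shown too. Beta-catenin, which acts on DNA through TCF/LEF factors, was to be removed mainly from ECs in 1 of the mutants. Microglia were not the target of that removal, and no link between a match and a level was tested. The sequences are the 250 bases before the RefSeq start on build GRCm38.p6, on the strand of the gene, and capitals mark a match to a motif searched on both strands.
*Igf1* (chr10:87860861-87861110, + strand): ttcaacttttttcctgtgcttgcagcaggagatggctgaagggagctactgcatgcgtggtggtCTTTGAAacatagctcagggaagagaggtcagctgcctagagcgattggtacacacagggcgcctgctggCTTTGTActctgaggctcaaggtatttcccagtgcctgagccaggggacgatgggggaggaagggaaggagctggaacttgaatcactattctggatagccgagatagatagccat
*Igfbp3* (chr11:7213924-7214173, - strand): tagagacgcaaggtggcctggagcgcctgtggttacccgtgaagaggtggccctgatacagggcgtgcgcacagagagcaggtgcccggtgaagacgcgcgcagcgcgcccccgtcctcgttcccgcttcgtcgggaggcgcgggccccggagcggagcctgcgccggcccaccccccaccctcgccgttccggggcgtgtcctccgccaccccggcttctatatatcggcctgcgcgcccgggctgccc
*Igfbp7* (chr5:77408046-77408295, - strand): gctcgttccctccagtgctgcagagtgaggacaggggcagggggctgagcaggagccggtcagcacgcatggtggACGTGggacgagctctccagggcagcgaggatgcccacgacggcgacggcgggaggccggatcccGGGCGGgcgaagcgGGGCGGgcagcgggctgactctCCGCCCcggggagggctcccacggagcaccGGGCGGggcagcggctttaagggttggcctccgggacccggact

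The TCF/LEF motif was searched as CTTTGAA and, by changes in the last letters, as CTTTGAT, and further as CTTTGTA or in the last form as CTTTGTT. The hypoxia factor core was searched as ACGTG. The GC box was searched as GGGCGG. The TATA box was searched as TATAAA. The 4 motifs were present in 14.8%, 16.6%, 32.7% and 12.4% of 32851 mouse promoters of the same length. The *Igf1* window held 2 TCF/LEF matches, starting 186 and 116 bases before the start site. The *Igfbp3* window held none of the 4 motifs, and the *Igfbp7* window held 1 ACGTG and 4 GC boxes. *Igfbp4* had a TATA box 28 bases before its start. A match is a run of letters only, and promoters were found for 9 of 9 members.

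The expression of each member was first placed among the cell types. The 3 libraries served as replicates of a difference between cell groups, with UMIs summed over endothelial, mural, macroglial (astrocytes and Müller glia), microglial and neural cells and tested with edgeR's quasi-likelihood test over 16446 genes, with the library as a term. P-values are adjusted by the Benjamini-Hochberg method within each comparison. They rest on the spread of the sums left after the group and library terms, taken over all 5 groups. The 3 libraries differ in genotype. The 9 members fell into a myeloid ligand, an astrocyte ligand with few UMIs and vascular binding proteins. The others were binding proteins highest in astrocytes and receptors lowest in microglia, as the plot of levels by cell class shows.

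**Figure D1:**
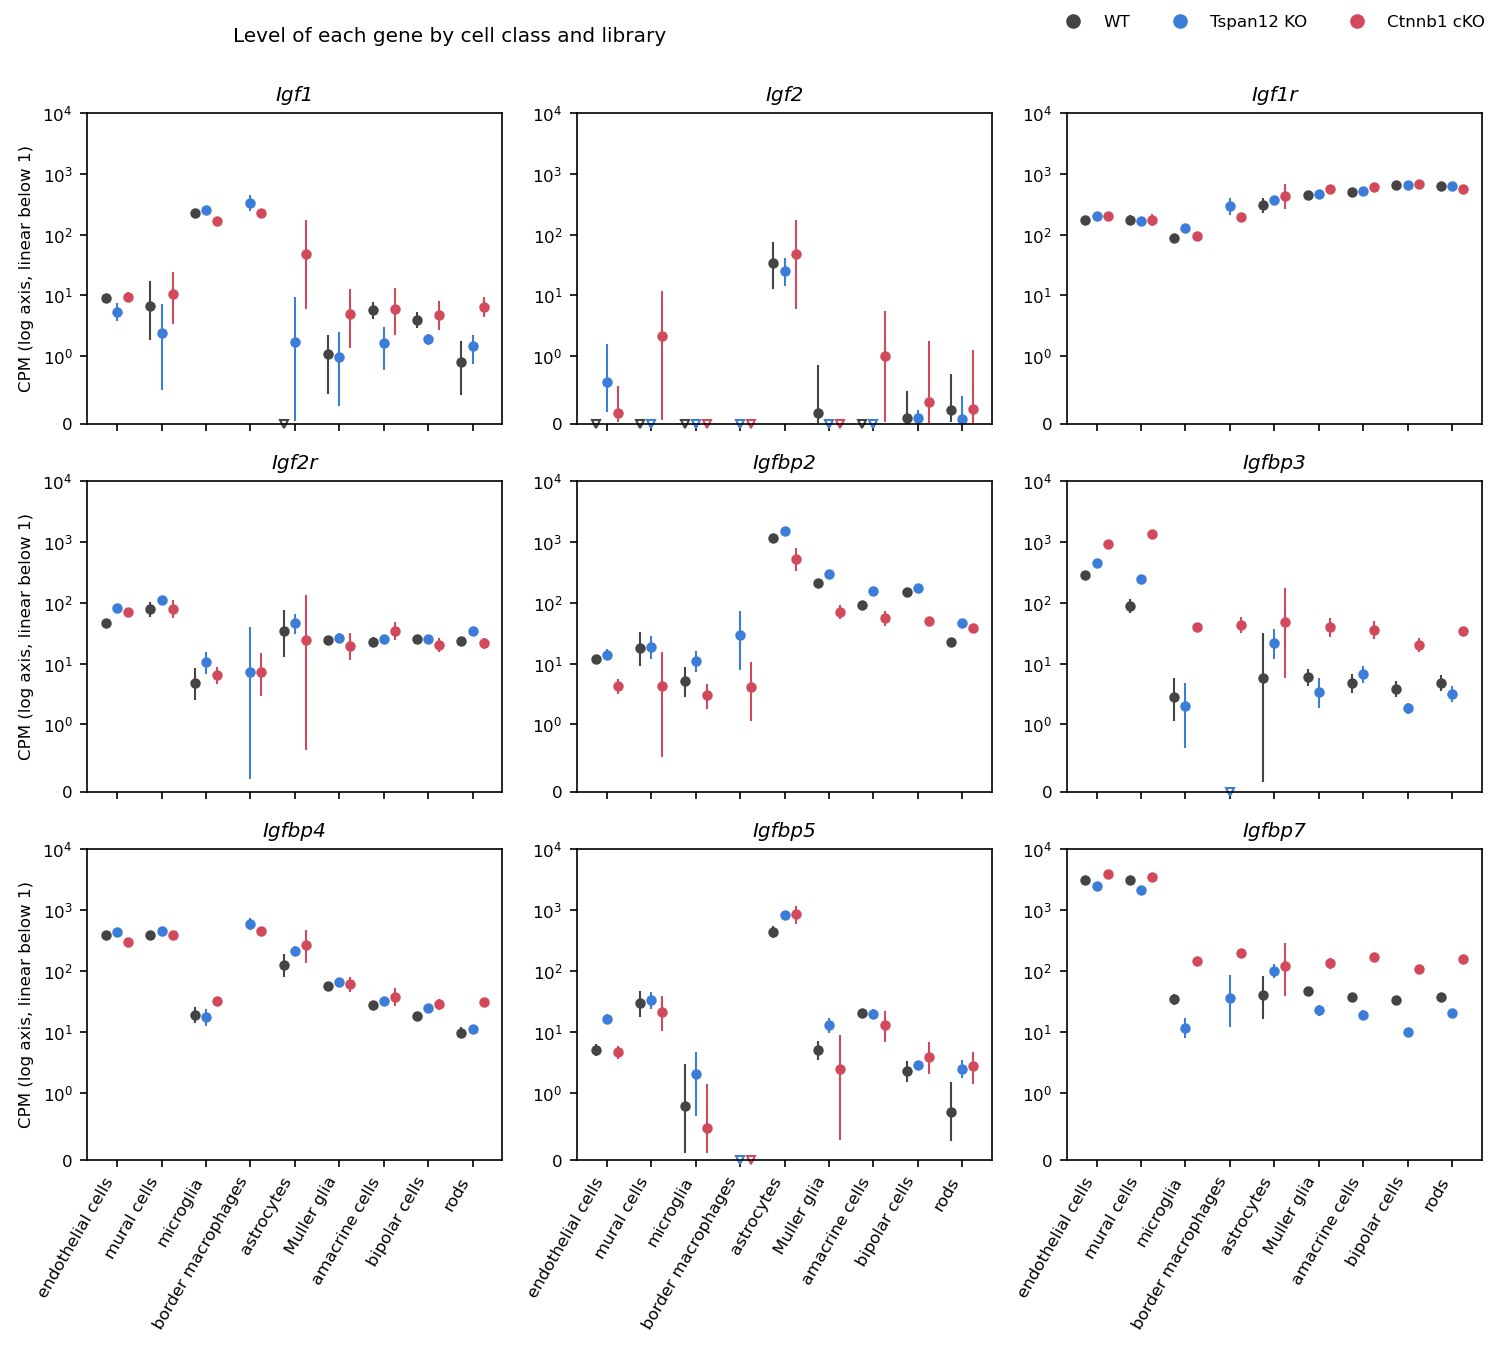
Level of each of the 9 genes in CPM (log axis, linear below 1) in chosen cell classes, for libraries with at least 15 cells of the class. There is 1 point per library, with bars for the 95% counting interval and open triangles for 0 UMIs. Neurogenic precursors, retinal progenitors, cones, neutrophils, erythrocytes and pigment epithelium or melanocytes are not shown. Among the classes shown, *Igf1* stands highest in microglia and border macrophages, *Igfbp3* and *Igfbp7* in endothelial and mural cells, and *Igf2*, *Igfbp2* and *Igfbp5* in astrocytes. The mural *Igfbp3* points come from cells that also carried EC markers. Mural cells with UMIs of fewer than 3 EC markers held 0, 0 and 2 *Igfbp3* UMIs (WT, *Tspan12* KO and *Ctnnb1* cKO).

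*Igf1*, the main growth-promoting ligand, was a myeloid transcript. In microglia it stood at 229.5, 258 and 166 CPM, and border macrophages (22 and 303 cells in the knockouts) held 333 CPM in *Tspan12* KO and 229.6 in *Ctnnb1* cKO. Neural cells held 3.06, 1.74 and 5.91 CPM. All 3 microglial values lay far above all 3 neural ones, and the log2 difference was 6.79 (SE 0.45, edgeR adjusted p = 1.6e-07). ECs, at 9.12, 5.37 and 9.49 CPM, were lower than microglia by a log2 difference of -4.94 (SE 0.41, edgeR adjusted p = 2.0e-06) and higher than neural cells by 1.85 (SE 0.41, edgeR adjusted p = 0.0019). The latter call was lost without the WT library, at 1.68 (edgeR adjusted p = 0.063). In *Ctnnb1* cKO, rods held 6.47 CPM of *Igf1*, close to the EC level. After each cell was thinned to 2000 UMIs, 26.2%, 33.4% and 20.2% of microglia had an *Igf1* UMI, against 0.542%, 0.225% and 1.23% of rods (median UMIs per cell 2947 to 9343 in microglia and 1428 to 3343 in rods). Without thinning the shares were 49.8%, 51.7% and 26.1% of microglia and 0.564%, 0.628% and 1.55% of rods.

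*Igf2*, the fetal ligand, was close to absent outside astrocytes. Astrocytes, which lay the track that retinal vessels follow, held 6, 15 and 2 UMIs, or 34.7, 25.4 and 48.6 CPM. Microglia held 0 *Igf2* UMIs in every library, which allows up to 1.20, 1.21 and 0.475 CPM. ECs held 0, 4 and 2 UMIs. *H19*, the noncoding neighbour imprinted in the opposite way, was also an astrocyte transcript, at 289, 935 and 1190 CPM in astrocytes and 1.36 to 9.42 CPM in ECs.

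*Igf1r*, the signaling receptor, was present in every class and highest in neurons. Bipolar cells held 659 to 692 CPM, above the 572 to 640 CPM of rods in every library, and rods overlapped with neurogenic precursors, the next in the order, at 531 to 671 CPM. Müller glia held 449, 463 and 569 CPM, ECs 175, 201 and 204, and microglia 86.4, 127 and 93.3. The EC values overlapped with neither the neural ones nor the microglial ones. ECs were lower than neural cells by a log2 difference of -1.19 (SE 0.13, edgeR adjusted p = 8.4e-07), and microglia by -2.01 (SE 0.14, edgeR adjusted p = 5.0e-09).

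*Igf2r*, the scavenger receptor for IGF-2, was highest in vascular cells. It stood at 47.3, 82.4 and 70.7 CPM in ECs and at 78.3, 111 and 80.0 in mural cells, ranges that overlapped. Neural cells held 24.2, 27.9 and 22.6 CPM, and microglia 4.80, 10.5 and 6.49. The EC level was higher than the neural one by a log2 difference of 1.89 (SE 0.15, edgeR adjusted p = 3.5e-08) and higher than the microglial one by 3.10 (SE 0.19, edgeR adjusted p = 3.2e-09). *Airn*, a noncoding transcript from the opposite strand of the *Igf2r* locus, stood at 213, 325 and 367 CPM in ECs and at no more than 15.7 CPM in microglia.

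*Igfbp7* and *Igfbp3* were the vascular binding proteins. *Igfbp7* stood at 3166, 2471 and 3972 CPM in ECs and 2183 to 3466 CPM in mural cells, against 11.7 to 143 CPM in microglia and 12.7 to 140 CPM in neural cells. EC and mural values overlapped for *Igfbp7*, *Igfbp3* and *Igfbp4*, but the mural *Igfbp3* UMIs lay in cells that also carried EC markers, as given below. *Igfbp3* stood at 284, 447 and 925 CPM in ECs and at 4.51, 2.39 and 29.4 CPM in neural cells. EC and neural values did not overlap for either gene, with log2 differences of 6.78 (SE 0.67, edgeR adjusted p = 7.6e-06) for *Igfbp7* and 6.72 (SE 0.60, edgeR adjusted p = 3.5e-06) for *Igfbp3*. *Igfbp4*, which blocks IGF action until it is cut by a protease, was shared by vascular cells (392, 442 and 295 CPM in ECs) and border macrophages (594 CPM in *Tspan12* KO and 453 in *Ctnnb1* cKO). Its EC level exceeded the neural one by a log2 difference of 4.55 (SE 0.26, edgeR adjusted p = 3.7e-09).

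*Igfbp2* and *Igfbp5* were the binding proteins with astrocytes as the highest class, but neither was confined to glia. Pigment epithelium or melanocytes came next for both. Neurogenic precursors held 82.3 to 424 CPM of *Igfbp2*, a range that overlapped with that of Müller glia. Amacrine cells, at a median of 19.4 CPM over the libraries, held more *Igfbp5* than Müller glia. *Igfbp2* stood at 1156, 1543 and 534 CPM in astrocytes, 212, 300.5 and 70.2 CPM in Müller glia and 12.1, 14.0 and 4.20 CPM in ECs. Macroglia exceeded ECs, which were lower by a log2 difference of -4.10 (SE 0.17, edgeR adjusted p = 9.7e-11), and exceeded neural cells by 1.28 (SE 0.15, edgeR adjusted p = 8.5e-06, and 0.12 without the library term). *Igfbp5*, a matrix-bound binding protein, stood at 439, 843 and 850 CPM in astrocytes but only at 5.01, 12.8 and 2.46 CPM in Müller glia. The macroglial level exceeded the neural one by a log2 difference of 3.32 (SE 0.53, edgeR adjusted p = 5.1e-04). Astrocytes exceeded Müller glia by log2 differences of 6.49 (SE 0.30) for *Igfbp5*, 2.54 (SE 0.27) for *Igfbp2* and 1.65 (SE 0.27) for *Igfbp4*. That comparison had 2 residual degrees of freedom and took the spread as equal over nearly all genes, so no p-value is given for it.

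Counted over all members, 9 of 9 passed the test between endothelial and macroglial cells (background 57.8% of all genes), 8 of 9 between endothelial and microglial cells (51.7%, with 6 to 7 under the 10 alternatives, in each of which *Igfbp2* was lost) and 7 of 9 between endothelial and neural cells (70.4%). The last share was near its background. *Igf2* cleared the expression filter mainly through macroglia, with 15 UMIs in *Tspan12* KO and 2 in *Ctnnb1* cKO. Its calls that involve macroglia therefore lend no support, and it was tested in 6 of the 10 alternatives only. Between endothelial and mural cells 0 of 9 passed by edgeR (9.64%), with 2 at an unadjusted p under 0.05 and 1, *Igfbp5*, by DESeq2. With only the mural cells of fewer than 3 EC markers, 3 passed (*Igf1r*, *Igfbp3* and *Igfbp4*, higher in ECs). Mural cells differed in 6 members from macroglia (44.3%), in 7 from microglia (43.7%) and in 7 from neural cells (56.3%). With only the mural cells of fewer than 3 EC markers, these counts were 4, 4 and 5 of 8 tested. *Igfbp3* and *Igfbp5* were in none of them. The background was then 2017, 3129 and 2964 of 16066 genes. Macroglia differed in 7 members from microglia (56.3%) and in 5 from neural cells (38.1%), and microglia in 5 from neural cells (66.4%).

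The genotypes were then compared class by class, as log2 ratios of the CPM of a knockout library to the WT library with 95% intervals that cover counting error only. A member was counted where both libraries together held at least 50 UMIs, and called past 2-fold at a ratio of 2 in either direction. A member could thus be counted through the library where it was high. In ECs 1 of 8 counted members was past 2-fold in *Tspan12* KO (background 6.28% of all genes) and 2 of 8 in *Ctnnb1* cKO (background 20.9%). The median log2 ratio of the 8 members was 0.20 in *Tspan12* KO and 0.14 in *Ctnnb1* cKO, against 0.01 and -0.12 over all genes counted. Fewer transcripts per cell and fewer transcribing cells cannot be told apart in these sums.

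*Igfbp3* had the largest ratio of the 8 counted members in *Ctnnb1* cKO ECs. In *Tspan12* KO ECs *Igfbp5* and *Igf2r* had larger ones. Its 284 CPM in WT (276 to 293) compared with 447 CPM (431 to 463) in *Tspan12* KO, a log2 ratio of 0.65 (0.58 to 0.72), and with 925 CPM (909 to 942) in *Ctnnb1* cKO, a log2 ratio of 1.70 (1.65 to 1.75). Both knockout values lay above WT beyond counting error, and *Ctnnb1* cKO was past 2-fold. After thinning to 2000 UMIs, 26.5%, 37.5% and 50.3% of ECs had an *Igfbp3* UMI, against 0.995%, 0.451% and 5.56% of rods. Cells with fewer UMIs were left out, which took 18, 29 and 824 ECs. Without thinning the EC shares were 61.5%, 68.6% and 60.3%, so that their order rests on the thinning. Within cluster 14 the level was 270.4 CPM in WT, 568 in *Tspan12* KO and 845 in 38 cells of *Ctnnb1* cKO. Within cluster 6 it was 186 CPM in the 60 WT cells, 92.4 in the 104 *Tspan12* KO cells and 415 in *Ctnnb1* cKO, so that the direction of the *Tspan12* KO difference was not the same in both clusters.

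**Figure D2:**
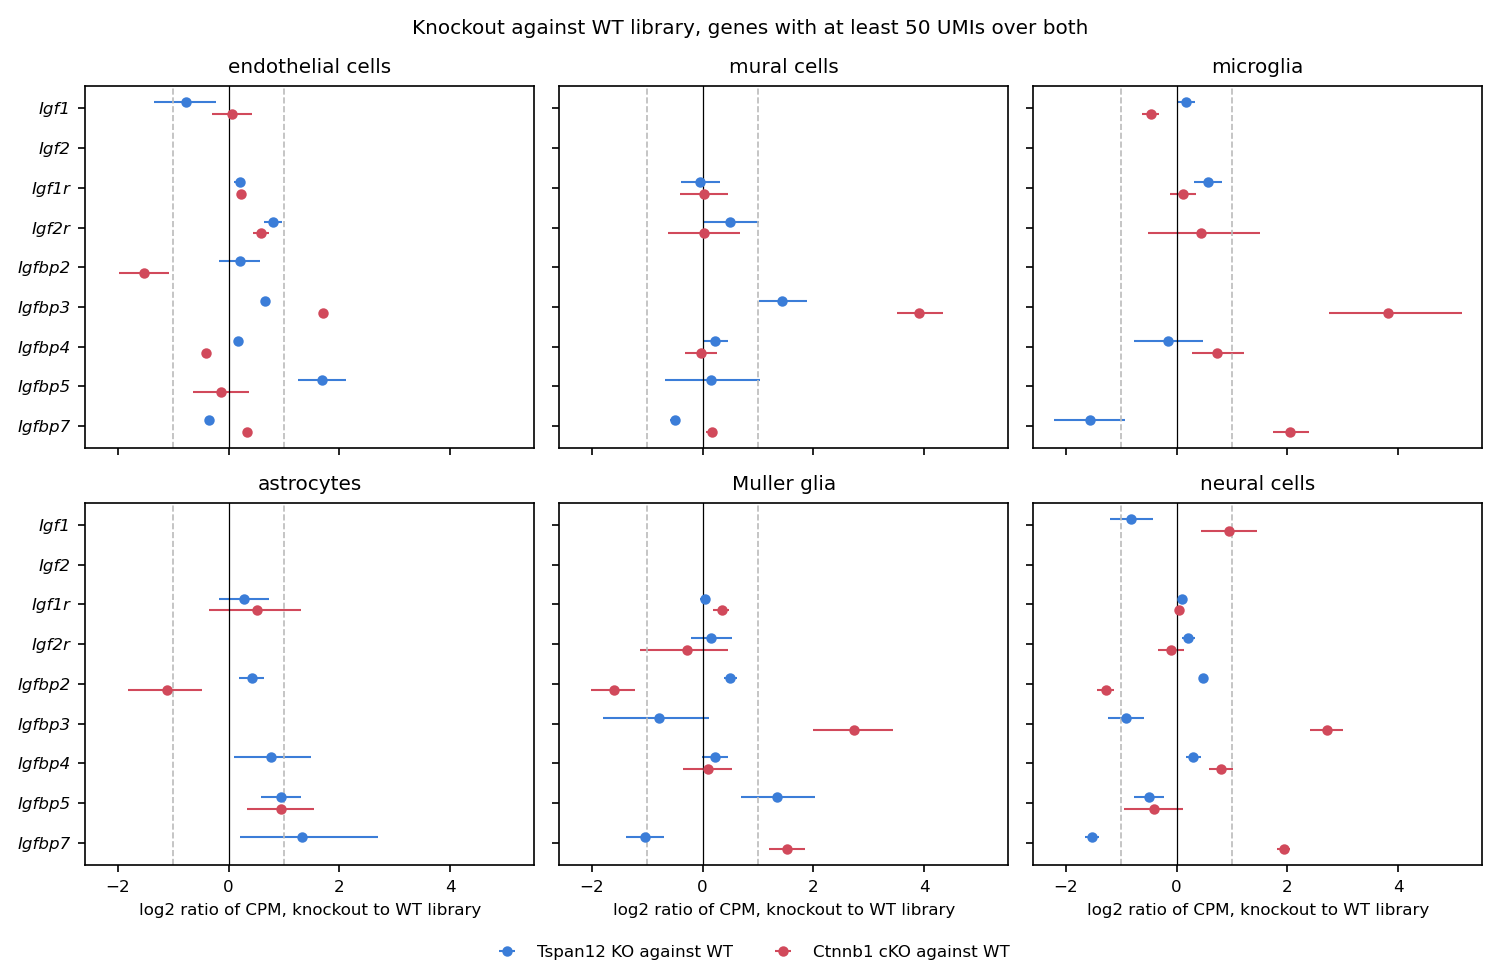
Log2 ratio of CPM in each knockout library to WT, by cell class, for members with at least 50 UMIs over both libraries; bars are 95% counting intervals and dashed lines mark 2-fold. *Igfbp3* in *Ctnnb1* cKO lies to the right of the 2-fold line in 5 of the 6 classes, and *Igfbp2* in *Ctnnb1* cKO to the left of it in 4.

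The other binding proteins differed in ECs as follows. *Igfbp7* was lower in *Tspan12* KO, at a log2 ratio of -0.36 (-0.38 to -0.33), and higher in *Ctnnb1* cKO, at 0.33 (0.31 to 0.34). *Igfbp4* went the other way, at 0.18 (0.11 to 0.24) and -0.41 (-0.47 to -0.35). *Igfbp5* stood at 5.02, 16.1 and 4.59 CPM, which is log2 ratios of 1.68 (1.25 to 2.12) and -0.13 (-0.64 to 0.37). *Igfbp5* was thus the single member past 2-fold in *Tspan12* KO ECs, from 81 and 105 UMIs. *Igfbp2* was lower in *Ctnnb1* cKO ECs, at -1.53 (-1.99 to -1.08), and its interval included 0 in *Tspan12* KO, at 0.21 (-0.17 to 0.57). Its EC levels of 12.1, 14.0 and 4.20 CPM, the last from 54 UMIs, lay below the 22.9 to 47.2 CPM of rods. Neural cells held 108, 149.6 and 44.7 CPM, with the same order of libraries. The part of background transcripts in the EC ratio of *Igfbp2* was not tested.

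Both receptors were somewhat higher in the ECs of both knockouts. *Igf2r* had log2 ratios of 0.80 (0.64 to 0.96) and 0.58 (0.44 to 0.72). *Igf1r* had 0.20 (0.10 to 0.29) and 0.22 (0.14 to 0.30), and its value in *Tspan12* KO turned to -0.11 when every cell was weighted equally. *Igf1* in ECs had -0.76 (-1.34 to -0.22) in *Tspan12* KO, from 147 and 35 UMIs, and 0.06 (-0.30 to 0.41) in *Ctnnb1* cKO. The knockouts share the WT library, so their ratios are not independent of each other.

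Within the ECs of the *Ctnnb1* cKO library, the level of *Igfbp3* differed between subclusters. ECs were clustered again into 10 subclusters, with the same genes left out as in the first clustering. Subcluster 6, named venous from its markers, held 3509 CPM of *Igfbp3* (3410 to 3610) in 294 *Ctnnb1* cKO cells, and the unnamed subcluster 7, led by genes that include *Rasd1* and *Gpihbp1*, held 2092 CPM (2003 to 2183) in 217 cells. Both were picked for the highest *Igfbp3* levels, so that a raised share of its UMIs was fixed in advance. These 511 cells were 18.9% of the ECs of that library and carried 57.6% of their *Igfbp3* UMIs. The arterial subcluster followed with 1066 CPM, the tip cell subcluster with 554, the proliferative one with 362 and the interferon-stimulated one with 342.

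WT and *Tspan12* KO ECs lay in other subclusters, with WT at 180.0 CPM of *Igfbp3* in the capillary subcluster 2 and 373 in the unnamed subcluster 5. *Tspan12* KO stood at 279.7 and 684 CPM in the same subclusters, higher than WT in each, and at 58.3 CPM in its own subcluster 9. An EC subcluster led by photoreceptor genes was kept in the EC class, and its removal was among the alternatives. Without subclusters 6 and 7 the log2 ratio of *Ctnnb1* cKO to WT fell from 1.70 to 0.76. *Igfbp4* did not share the pattern, with 197 CPM in subcluster 6 and 276 to 503 CPM in the others. No subcluster with at least 10 cells of WT held as many of *Ctnnb1* cKO, so a subcluster and a library can hardly be told apart here.

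**Figure D3:**
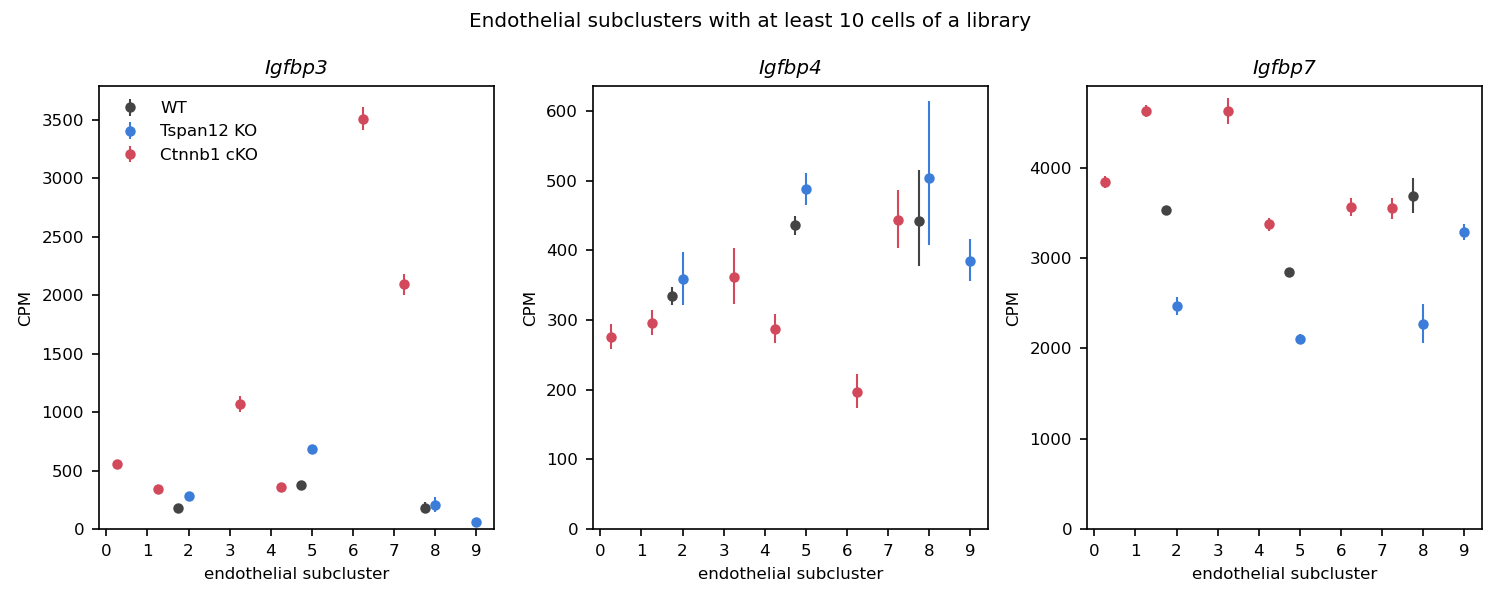
CPM of *Igfbp3*, *Igfbp4* and *Igfbp7* in the EC subclusters with at least 10 cells of a library, with points for libraries and bars for 95% counting intervals. *Igfbp3* reaches 3509 CPM in subcluster 6 and 2092 in subcluster 7, both of *Ctnnb1* cKO cells, and *Igfbp7* is above 2000 CPM throughout.

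Members also differed with the cell cycle. Cells were called cycling at 3 or more UMIs over 12 mitotic genes after thinning, which gave 164, 55 and 361 ECs. *Igf1r* was lower in cycling ECs in all 3 libraries, at 133 against 209, 158 against 219.8 and 153 against 216 CPM, or log2 ratios of -0.65 (-0.76 to -0.54), -0.47 (-0.67 to -0.29) and -0.50 (-0.65 to -0.35). *Igf2r* was lower in cycling ECs too, at -0.30 (-0.51 to -0.08), -0.51 (-0.82 to -0.21) and -0.57 (-0.84 to -0.31). *Igfbp3* had no common direction, with 289 against 280.3 CPM (log2 ratio 0.04, -0.04 to 0.13), 569 against 396 (0.52, 0.41 to 0.63) and 465 against 1035 (-1.15, -1.24 to -1.07).

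In mural cells, *Igfbp3* stood at 90.0, 244 and 1349 CPM, or log2 ratios of 1.44 (1.02 to 1.88) and 3.91 (3.50 to 4.34). It was the single member past 2-fold in either knockout, of 6 counted in *Tspan12* KO (background 7.99%) and of 5 in *Ctnnb1* cKO (background 20.7%). These UMIs lay in the cells that also carried EC markers. The mural cells with UMIs of fewer than 3 EC markers held 0, 0 and 2 *Igfbp3* UMIs, and those with 3 or more held 92.5, 254 and 1512 CPM with median UMIs of 5095 to 18328 per cell, against 1870 to 5863 in the former. *Igfbp7* was present in both, at 1921, 2346 and 4125 CPM in the cells with fewer EC markers, and *Igfbp4* at 120.1, 170.3 and 285 CPM from 2, 9 and 15 UMIs.

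In microglia the ligand was lower in *Ctnnb1* cKO. The log2 ratio of *Igf1* was -0.47 (-0.61 to -0.32) there, with 0.17 (0.00 to 0.33) in *Tspan12* KO. Most microglia of every library were in cluster 3, where the levels were 232, 254 and 162 CPM. In the smaller cluster 22 (96, 74 and 51 cells, led by *Hmox1* and *Clec7a*) the direction was the other one, with 204.5, 319 and 424 CPM from 48, 49 and 38 UMIs. Among 12 subclusters, the homeostatic one held 229 CPM in WT and 240.2 in *Tspan12* KO, and the *Ctnnb1* cKO cells were in others, of which those named chemokine-high held 168 and 93.5 CPM. An unnamed subcluster of 84 *Ctnnb1* cKO cells, led by haemoglobin genes and *Gpnmb*, held 718 CPM (634 to 810) and 25.0% of that library's microglial *Igf1* UMIs. Cycling microglia of *Ctnnb1* cKO held 84.1 CPM against 178 in the others, a log2 ratio of -1.09 (-1.72 to -0.51). The unnamed cluster of cycling cells with microglial markers is not among them.

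*Igf1r* in microglia was higher in *Tspan12* KO, at 0.56 (0.31 to 0.82), and its interval included 0 in *Ctnnb1* cKO, at 0.11 (-0.12 to 0.34). Past 2-fold in microglia were 1 of 4 counted members in *Tspan12* KO (background 3.61%), *Igfbp7*, and 2 of 6 in *Ctnnb1* cKO (background 16.3%), *Igfbp3* and *Igfbp7*. Both binding proteins had levels in rods of the same library that were close to those in microglia or above them. *Igfbp7* stood at 34.4, 11.7 and 143 CPM in microglia and at 37.1, 20.4 and 155 CPM in rods, and *Igfbp3* at 2.80, 2.02 and 39.4 CPM in microglia and 4.81, 3.18 and 34.4 CPM in rods. *Igfbp3* had 7 UMIs in WT microglia and 249 in those of *Ctnnb1* cKO, and was counted only through the latter.

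In Müller glia and neurons too, *Igfbp3* and *Igfbp7* were past 2-fold higher in *Ctnnb1* cKO and *Igfbp7* past 2-fold lower in *Tspan12* KO. Per 100 *Igfbp7* UMIs, ECs held 8.99, 18.1 and 23.3 *Igfbp3* UMIs. Over 5 other classes (rods, amacrine cells, bipolar cells, Müller glia and microglia) the figure ranged from 8.14 to 12.9 in WT, from 15.2 to 35.3 in *Tspan12* KO and from 18.7 to 29.6 in *Ctnnb1* cKO. ECs held 21.0%, 6.29% and 39.4% of the kept UMIs of the libraries, and the part of this share in the levels was not tested.

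**Figure D4:**
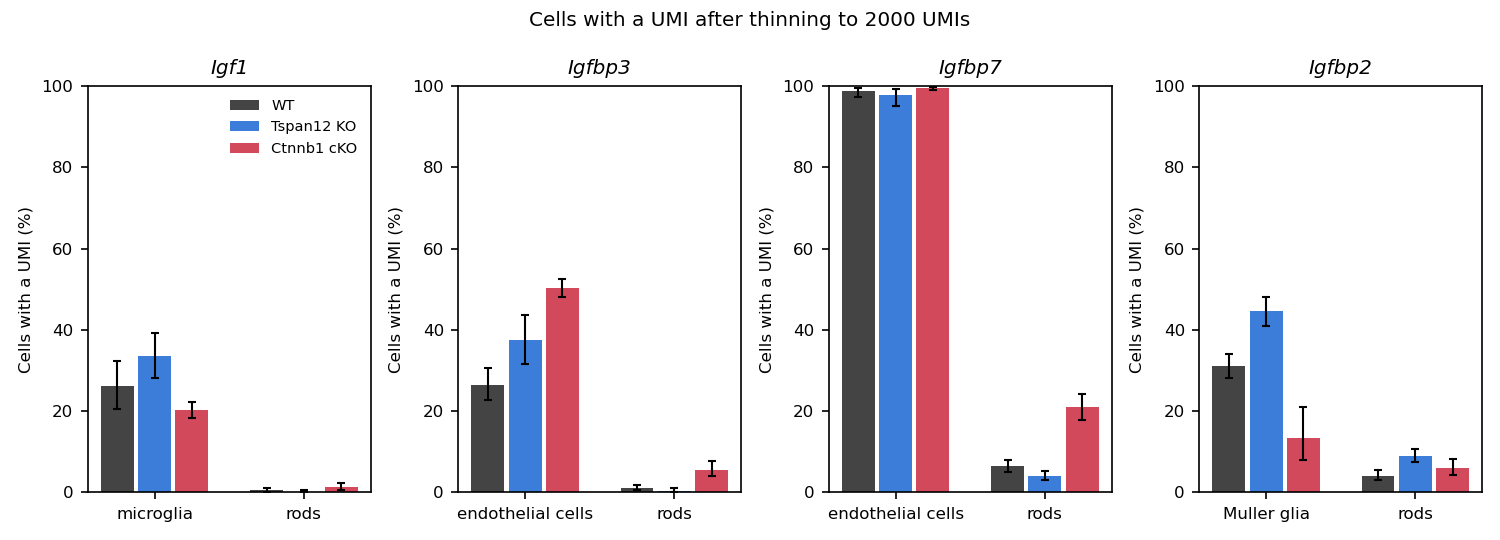
Share of cells with a UMI of *Igf1*, *Igfbp3*, *Igfbp7* and *Igfbp2* after thinning to 2000 UMIs, in the class named and in rods of the same library, with 95% binomial intervals. *Igfbp3* is found in 26.5% to 50.3% of ECs and in 0.451% to 5.56% of rods, and *Igfbp7* reaches 21.0% of rods in *Ctnnb1* cKO.

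*Igfbp2* had the same order of libraries in glia, neurons and ECs. In Müller glia it had log2 ratios of 0.50 (0.39 to 0.61) and -1.60 (-2.01 to -1.21), and in astrocytes 0.42 (0.19 to 0.64) and -1.11 (-1.82 to -0.48). In neural cells it stood at 108, 149.6 and 44.7 CPM, or 0.47 (0.41 to 0.52) and -1.27 (-1.43 to -1.12). The order *Tspan12* KO, WT, *Ctnnb1* cKO was thus the same in Müller glia, astrocytes, neural cells and ECs. It also held within the bipolar clusters 10 (349.7, 481 and 167 CPM) and 8 (74.1, 158 and 40.2 CPM). When Müller glia were taken by marker counts per cell in place of clusters, the ratio of *Ctnnb1* cKO was 0.05. The share of Müller glia with an *Igfbp2* UMI was 31.0%, 44.6% and 13.4% after thinning, the last from 119 cells, and that of rods 4.16%, 9.02% and 6.02%.

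*Igfbp5* in astrocytes was higher in both knockouts, at log2 ratios of 0.94 (0.59 to 1.31) and 0.95 (0.33 to 1.55), with 21, 48 and 19 cells. In Müller glia *Igfbp5* was 1.35 (0.68 to 2.03) higher in *Tspan12* KO on the log2 scale, from 32 and 52 UMIs. *Igf1r* was close to even in neural cells, at 0.10 (0.07 to 0.12) and 0.05 (0.00 to 0.09), and was 0.34 (0.20 to 0.48) higher in *Ctnnb1* cKO Müller glia. In astrocytes 1 of 5 counted members was past 2-fold in *Tspan12* KO (*Igfbp7*, background 9.97%) and 1 of 3 in *Ctnnb1* cKO (*Igfbp2*, 31.6%). The *Igfbp7* ratio came from 7 and 60 UMIs and turned to -1.35 without doublet removal, and EC markers in astrocytes summed to 295 CPM in WT and 828 in *Tspan12* KO, whose part was not tested. In Müller glia they were 2 of 7 (2.89%) and 3 of 6 (15.6%), and in neural cells 1 of 8 (6.61%) and 3 of 8 (20.2%). Over the 6 classes, 7 of 38 counted values in *Tspan12* KO and 12 of 36 in *Ctnnb1* cKO were past 2-fold, against 5.68% and 18.9% of all values counted in these classes. Those past 2-fold were all *Igfbp3*, *Igfbp5* or *Igfbp7* in *Tspan12* KO and *Igfbp2*, *Igfbp3* or *Igfbp7* in *Ctnnb1* cKO. The same genes recur across classes of the same libraries, so the values are not separate observations and the counts are a description only.

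Other genes of the pathway were taken from fixed lists. In ECs, 7 of 9 binding-protein proteases and their inhibitors were counted, of which 1 was past 2-fold higher and 1 lower in *Tspan12* KO and 3 higher in *Ctnnb1* cKO, beside the EC backgrounds of 6.28% and 20.9% for a difference in either direction, which also stand for the EC lists that follow. *Mmp2*, a matrix protease that can cut IGFBPs, stood at 1.12, 6.90 and 33.2 CPM, and *Stc1*, an inhibitor of the IGFBP4 protease, at 13.5, 16.7 and 37.0. *Pappa*, the gene of that protease, had 9, 0 and 3 UMIs. *Htra1*, another protease of IGFBPs, was higher in both knockouts with log2 ratios of 0.93 (0.77 to 1.09) and 0.93 (0.80 to 1.07).

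Among other receptors, 0 of 5 counted in ECs were past 2-fold in *Tspan12* KO and 1 (*Lrp1*, higher) in *Ctnnb1* cKO. *Lrp1* stood at 3.10 CPM in WT ECs and 11.4 in *Ctnnb1* cKO ECs, against 286 and 629 CPM in microglia. Microglial markers (10 of 10 detected) summed to 144, 107 and 609 CPM in ECs, and their part in the EC levels of *Lrp1* was not tested. *Insr*, the insulin receptor, had log2 ratios of 0.56 (0.48 to 0.65) and 0.60 (0.53 to 0.67), and *Cd93*, a vascular receptor that binds IGFBP7, had 0.35 (0.31 to 0.39) and -0.35 (-0.39 to -0.31). Of 25 counted adaptors and kinases, 1 was past 2-fold in *Tspan12* KO and 2 in *Ctnnb1* cKO, all higher. Of 8 counted imprinted growth genes, 1 was higher and 1 lower in *Tspan12* KO, and 1 higher and 3 lower in *Ctnnb1* cKO. The mRNA-binding *Igf2bp2* was higher in both, at 2.48, 6.75 and 11.7 CPM, as was *H19*, at 1.36, 4.91 and 9.42 CPM. None of the 6 other ligands and binding proteins reached 50 UMIs over both libraries in ECs. In *Tspan12* KO microglia, *Adamts1* was the single gene of these lists past 2-fold (higher), as 1 of 4 counted proteases and inhibitors (background 3.61%). In *Ctnnb1* cKO microglia (background 16.3%), 2 of 4 other receptors (*Lrp1* and *Cd93*) and 1 of 24 adaptors and kinases (*Tsc2*) were higher, and of 3 imprinted genes *Airn* was higher and *Meg3* lower. *Cd93* stood at 9.60, 5.24 and 30.2 CPM in microglia and at 9.41, 6.66 and 27.2 CPM in rods, and EC markers in microglia summed to 229, 129 and 532 CPM. The part of these EC transcripts in the *Cd93* levels of microglia was not tested.

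The genes most like each member were found by Pearson's r of log2(CPM + 5) over 37 sums of a class in a library with at least 20 cells, among 9509 genes reaching 50 CPM. The sums share libraries and depths, and r is a description. *Igfbp3* was most like *Col4a2* (r = 0.97), *Tie1* and *Col4a1*, and *Igfbp7* most like *Gng11* (0.96), *Cavin2* and *Hspg2*. *Igf1* was most like *Clta* (0.93), *Rapsn* and *Hexa*, and *Igf1r* most like *Atxn7l3b* (0.94), *Chd6* and *Acvr2b*. *Igfbp2* was nearest to *Rmst* (0.92), *Lhx2* and *Luzp2*, *Igfbp5* to *Il17d* (0.93), *Sspn* and *Mir100hg*, *Igfbp4* to *Kank2* (0.86), *Afap1l1* and *Cd38*, and *Igf2r* to *Mprip* (0.87), *Cttn* and *Lysmd2*. *Igf2*, whose own level never reached 50 CPM, was nearest to *Gm14061* (0.97), *Mlc1* and *Cck*.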

How the data were processed

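The authors deposited UMI counts per gene and cell barcode for each library, made from Chromium 3' libraries with Cell Ranger. The matrix header names version 8.0.1, which is not the version in the methods, and the submitters' processing notes name GRCm39, which is not the build of the methods' reference, so no gene coordinates are given from the files. The filters of the study were applied (a minimum of 250 genes and 500 UMIs, a maximum of 15% mitochondrial UMIs). Scrublet scores (scanpy version 1.11.5) removed 0.8% of cells per 1000 as doublets (760 WT, 1656 *Tspan12* KO and 665 *Ctnnb1* cKO). Counts were scaled to 10000 per cell. The 2000 variable genes left out the 9 members, the other genes of the fixed IGF pathway and imprinted lists, and mitochondrial genes. With 30 principal components and 20 neighbours, cells were clustered with leidenalg version 0.10.2 at resolution 1, with no batch integration. A cluster took the name of 1 of 20 classes from at least 3 fixed markers, and names stand for cells like that class. UMIs were summed per class and library. Intervals (95%) were exact: Poisson on CPM values, conditional binomial on ratios, Clopper-Pearson on shares of cells. They cover counting error only, and a count of 0 is given as 3 counts of the total. Cell groups were compared with edgeR version 4.0.16 (R version 4.3.3, TMM, filterByExpr, robust quasi-likelihood fit) over 10 pairs of 5 groups. The alternative tool was DESeq2 version 1.42.0. The edgeR step was tested on simulated counts. Named genes were the 9 members, genes of fixed lists past 2-fold in both knockouts, fixed neighbours and the 3 genes most like each member. Genes of lists named beyond these, the cluster-leading genes and the within-cluster values were chosen after their values were seen. The members, markers and lists were chosen with earlier results of these data known. Promoters are from RefSeq (GRCm38.p6). Protein sequences were not used here.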

Additional observations from a re-analysis of the deposited data

Results flagged for a closer look

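*Igf1* in *Tspan12* KO had a log2 ratio to WT of -0.76 in ECs and 0.17 in microglia, and *Igfbp4* in *Ctnnb1* cKO had -0.41 in ECs and 0.74 in microglia. Each pair drew attention because the counting intervals lay on opposite sides of 0 in the 2 classes. The differences between classes were not tested, since each genotype had 1 library. The lower bound of the *Igf1* ratio in microglia was 0.00, and *Igfbp4* in *Ctnnb1* cKO microglia stood at 32.0 CPM, beside 30.3 CPM in rods of that library.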

How the results depend on the processing

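The log2 ratio of *Igfbp3* in ECs stayed between 1.66 and 1.93 in *Ctnnb1* cKO and between 0.50 and 0.66 in *Tspan12* KO under every alternative but the removal of the 2 *Igfbp3*-high subclusters (0.76 in *Ctnnb1* cKO), which was chosen after seeing the data. *Igf1* in *Ctnnb1* cKO microglia stayed between -0.65 and -0.35. Of the single values recomputed under alternatives, 1400 kept their direction and their side of the threshold, 157 moved, 44 were no longer past the threshold, 20 newly passed it and 16 turned direction, for which the cause was not tested. With every cell weighted equally, values in *Tspan12* KO were -0.11 for *Igf1r* in ECs, -0.044 for *Igf2r* in mural cells and 0.25 for *Igf1* in neural cells. With cells taken by marker counts, values were -0.11 for *Igfbp4* in *Tspan12* KO mural cells, 0.052 for *Igfbp2* in *Ctnnb1* cKO Müller glia, 0.089 for *Igf1* and 0.33 for *Igfbp5* in *Tspan12* KO neural cells, and -0.32 for *Igfbp3* in mural against microglial cells. Without doublet removal, *Igfbp4* and *Igfbp7* in *Tspan12* KO astrocytes were -0.58 and -1.35. With each library clustered alone, *Igfbp4* in *Tspan12* KO neural cells was -0.049. With mural cells of under 3 EC markers (chosen after seeing the data), *Igfbp7* in *Tspan12* KO mural cells was 0.29, *Igfbp3* was -0.56 against macroglial and -0.81 against microglial cells, and *Igf1r* was -0.64 against microglial cells. *Igfbp7* in astrocytes against Müller glia ranged from -0.26 to 1.44 when 1 library was left out, the former without *Tspan12* KO.

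Members past 2-fold in *Tspan12* KO came to 3 over the 6 classes and 0 in ECs at a minimum of 200 UMIs, and to 2 in ECs among cells not called cycling. Over the 6 classes they ranged from 3 to 10 in *Tspan12* KO and from 10 to 17 in *Ctnnb1* cKO. Members differing between endothelial and mural cells came to 1 with DESeq2, 3 with cells taken by marker counts, 3 with mural cells of under 3 EC markers and 0 to 1 when 1 library was left out (1 without *Tspan12* KO). Those between endothelial and microglial cells came to 6 to 7, where *Igfbp2* was lost in all 10 alternatives and *Igfbp5* without the filter and without *Ctnnb1* cKO. *Igf1* between endothelial and neural cells was lost without WT (edgeR adjusted p = 0.063). Between endothelial and macroglial cells the count was 7 to 9. The call of *Igf2* was lost without WT, and *Igf2* was tested in 6 of the 10 alternatives. The call of *Igf1* was lost without WT and with cells taken by marker counts (log2 difference 0.71, edgeR adjusted p = 0.42). With mural cells of under 3 EC markers, members differing from mural cells came to 4 in macroglial, 4 in microglial and 5 in neural cells. Those between macroglial and neural cells came to 3 without the library term, 3 without doublet removal and 3 with those mural cells. The cell groups were paired by library through the library term. For a knockout against WT, no paired analysis was possible because each genotype had 1 library, so that the genotypes share fewer than 2 replicate numbers. Depth limits *Igf2* everywhere, *Igf1* outside myeloid cells, and all values in astrocytes and mural cells, which came from 15 to 86 cells a library.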

Other observations

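The cluster named pigment epithelium or melanocytes (49 *Tspan12* KO and 95 *Ctnnb1* cKO cells, 2 in WT) held several members at levels above those of neurons. *Igfbp7* stood at 580 to 737 CPM there, *Igfbp2* at 457 to 848 CPM, *Igfbp5* at 67.0 to 193 CPM and *Igf1* at 47.9 to 121 CPM.

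Border macrophages differed from microglia in *Igfbp4*, at 453 to 594 CPM against 17.3 to 32.0 CPM, and had *Igf1* at 229.6 to 333 CPM. *Igfbpl1*, a binding protein-like gene, was a transcript of amacrine cells, at 166, 162 and 58.8 CPM (WT, *Tspan12* KO, *Ctnnb1* cKO). The unnamed subcluster 7 of *Ctnnb1* cKO ECs, besides its *Igfbp3*, held *Igf1* at 39.3 CPM, against at most 12.3 CPM in every other EC subcluster shown.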
